A study of Homo sapiens with 4 samples.

Results

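In Ishikawa cells carrying a *CDYL* shRNA, 37 of the 58522 genes listed were present although they were nearly silent in control cells. These genes were chosen from the counts themselves: each had fewer than 0.5 CPM (a gene's count scaled by the library's total count to counts per 1000000) in both control libraries and at least 1 CPM in both *CDYL*-sh libraries. In all, 42796 genes lay under 0.5 CPM in both control libraries. Of these, 37 (0.0865%) reached 1 CPM in both *CDYL*-sh libraries, 70 (0.164%) did so in 1 of them, and 42689 (99.7%) in neither. In the opposite direction, 21 of the 42706 genes (0.0492%) under 0.5 CPM in both *CDYL*-sh libraries were at 1 CPM or more in both control libraries, and these 21 genes serve below as the mirror set. Because the counts chose the genes, their levels and fold changes are given as a description and carry no test.

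Ishikawa is a human endometrial adenocarcinoma line used as a model of endometrial epithelium. RNA-seq was done in 2 libraries of Ishikawa cells given an shRNA against *CDYL* and 2 libraries of cells given a negative control shRNA. The *CDYL* target sequence was cloned into a plasmid with a puromycin resistance gene and a green fluorescent reporter, the shRNAs were added with polybrene, and transduced cells were selected with puromycin. The vector of the control shRNA is not given in the sources used here. Which hairpin each *CDYL*-sh library carries, and whether replicate libraries derive from independent cultures, is not given in the sources used here, so p-values measure only the spread between these libraries. Total counts were 27451007 and 22341852 in the *CDYL*-sh libraries and 27688447 and 26981051 in the control libraries, so that 1 CPM stood for 22.3 to 27.7 counts and 0.5 CPM for 11.2 to 13.8 counts. *CDYL* itself was at 11.6 and 9.58 CPM in *CDYL*-sh cells and at 50.7 and 52.1 CPM in control cells. Its log2 fold change was -2.28 (SE 0.13, adjusted p = 4.26e-09 in edgeR's quasi-likelihood test), with no overlap between the groups. All 8 epithelial markers listed were tested, and their CPM summed to 3349 and 3502 in *CDYL*-sh cells and 3411 and 3727 in control cells. Of these 8, 3 were higher and 1 was lower in *CDYL*-sh cells (median log2 fold change -0.122), which such a sum does not show. The 9 endometrial and Müllerian markers summed to 704 and 657 CPM in *CDYL*-sh cells and 775 and 745 CPM in control cells. Most of this sum came from *PAX8*, at 503 and 468 CPM in *CDYL*-sh cells and 480 and 478 CPM in control cells. *SOX17*, *EMX2* and *HOXA11* were lower in *CDYL*-sh cells (3 of 6 tested, log2 fold changes -0.72, -0.32 and -0.63), *PGR* was at 0 in every library and *ESR1* at 0.217 to 0.224 CPM. In bulk RNA a change in the number of cells of a kind and a change in the RNA per cell cannot be told apart.

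CDYL is a chromodomain protein that binds methylated histone H3 and acts as a transcriptional corepressor. It has been found in complexes with the histone methyltransferases EHMT1 and EHMT2 and with REST, a zinc finger repressor that keeps neuronal genes off in other tissues by binding a DNA element called RE1. Genes that a cell keeps silent are often those of another tissue, such as retina, brain or cornified epidermis, and RNA-seq counts them in only a few reads. Of these partners, *REST* was at 26 and 24.7 CPM in *CDYL*-sh cells and 20.9 and 16 CPM in control cells (log2 fold change 0.44, SE 0.14, adjusted p = 0.0283, edgeR's quasi-likelihood test). *EHMT1* was slightly lower in *CDYL*-sh cells (log2 fold change -0.34, SE 0.10, adjusted p = 0.0197), and *EHMT2* did not pass the test (-0.16, SE 0.11, adjusted p = 0.292).

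The genome within 5 kb of the start of each gene was searched on both strands for the central part of the RE1 consensus, CAGCACC and GGACAG with any 2 letters between them, with at most 1 mismatch among the 13 fixed letters of the 15. A match was found for 6 of the 33 genes with a position in GENCODE 44 (18.2%), against 1 of the 21 mirror genes (4.76%), 128 of 2586 other tested genes of the same mean level (4.95%) and 800 of 15828 genes tested (5.05%). On a list of known REST target genes, 15 of 42 tested genes (35.7%) had one. The matches are shown with 7 bases on each side, read from GRCh38 along the strand that holds the match, to show how near each comes to the full pattern. Capitals mark the fixed letters of the core, and substitutions count from 1 at the 5′ end of the core with the letter of the pattern first.
KCNH4, chr17:42180280-42180308, minus strand: tcaggttCAGCACCttGGACAGccacatc
PCBP3, chr21:45646015-45646043, minus strand: acggattCAGCACCatGGACAGcgggccc
BEX1, chrX:103063321-103063349, plus strand, C4T: aacgcttCAGTACCgaGGACAGaggcacg
DNAH11, chr7:21541148-21541176, plus strand, G11A: tatttccCAGCACCtaGAACAGtgcttgg
FRMD5, chr15:44199481-44199509, minus strand, C1T: gaagaggTAGCACCtgGGACAGaaaatgg
KRT16P6, chr17:16818541-16818569, minus strand, G11A: tggtgctCAGCACCatGAACAGggccctg
KRT16P6, chr17:16827457-16827485, plus strand, G11A: acccaaaCAGCACCcaGAACAGacaagag
*KCNH4* and *PCBP3* held the core with 0 mismatches, 848 bp and 2335 bp downstream of their starts, and both sites lay in an intron of the gene. The *BEX1* site lay in its intron, 836 bp downstream of the start. The sites of *DNAH11* and *FRMD5* lay upstream, outside any annotated gene. *KRT16P6* held 1 site in its own body outside the exons and 1 upstream of its start. A match is a description of letters and was not tested for binding.

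Promoters of 300 bases (250 before to 50 after the RefSeq start, GRCh38.p14) were found for 17 of the 37 genes and searched on both strands for 5 short motifs. The AP-1 motif TGACTCA occurred in 3 of the 17 (17.6%), namely *CASP14*, *CPA4* and *GRM6*, against 4.48% of tested genes of the same level and 4.92% of all 27305 promoters. CACGTG, an E-box, occurred in 3 (17.6%), *BEX1*, *GPM6A* and *KCNH4*, against 7.76% at the same level and 7.43% of all promoters. TATAAA occurred in 2 (11.8%), *CPA4* and *PSORS1C2*, against 8.16% at the same level and 12% of all promoters. CCAAT occurred in 11 (64.7%) against 33.8% at the same level and 35.7% of all promoters. GGGCGG, a GC box, occurred in 8 (47.1%), against 60.9% at the same level, 69.7% of genes tested and 44.6% of all promoters. With 17 promoters, 1 gene more or less moves each share by several percentage points. The promoters with an AP-1 match, and that of *KCNH4*, are shown along the gene's strand. Capitals mark matches to the AP-1 motif, the TATA motif or the E-box as read on either strand, and the TATA matches of *CPA4* overlap each other.
GRM6 promoter, chr5:178995271-178995570, minus strand: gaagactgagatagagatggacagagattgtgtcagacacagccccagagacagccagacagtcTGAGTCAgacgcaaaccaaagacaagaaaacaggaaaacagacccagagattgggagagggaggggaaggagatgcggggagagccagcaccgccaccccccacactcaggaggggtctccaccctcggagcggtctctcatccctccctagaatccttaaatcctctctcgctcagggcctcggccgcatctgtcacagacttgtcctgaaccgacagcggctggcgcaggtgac
CASP14 promoter, chr19:15049230-15049529, plus strand: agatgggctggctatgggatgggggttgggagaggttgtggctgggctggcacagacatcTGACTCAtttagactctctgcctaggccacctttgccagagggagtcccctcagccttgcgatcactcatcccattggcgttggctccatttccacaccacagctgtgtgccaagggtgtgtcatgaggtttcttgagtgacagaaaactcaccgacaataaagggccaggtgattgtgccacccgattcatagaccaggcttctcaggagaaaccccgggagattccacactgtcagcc
CPA4 promoter, chr7:130292911-130293210, plus strand: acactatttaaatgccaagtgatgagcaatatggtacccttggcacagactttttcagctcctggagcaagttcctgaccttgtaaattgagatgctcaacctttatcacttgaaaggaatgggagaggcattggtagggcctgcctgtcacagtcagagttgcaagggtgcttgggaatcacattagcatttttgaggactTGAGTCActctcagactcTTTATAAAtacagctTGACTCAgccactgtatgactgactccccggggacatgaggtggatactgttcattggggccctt
KCNH4 promoter, chr17:42181093-42181392, minus strand: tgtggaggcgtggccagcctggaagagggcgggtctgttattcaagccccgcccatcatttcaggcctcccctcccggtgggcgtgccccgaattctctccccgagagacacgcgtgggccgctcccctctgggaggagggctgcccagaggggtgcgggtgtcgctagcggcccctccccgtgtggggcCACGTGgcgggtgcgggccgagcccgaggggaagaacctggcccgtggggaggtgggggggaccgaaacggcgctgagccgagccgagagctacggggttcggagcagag
In *CPA4* the AP-1 matches began at -48 and -15 and the TATAAA matches at -30 and -28. The AP-1 match began at -190 in *CASP14* and at -186 in *GRM6*, and the E-box at -60 in *KCNH4*. The RefSeq starts of *GRM6*, *PRSS3* and *SYNPO2L* lay inside the genes as GENCODE gives them, so these promoters are those of shorter transcripts. That of *GPM6A* also lay inside, nearer the GENCODE start, so its E-box lay within the gene. Those of *CAMKV*, *CPA4* and *PTPRH* lay inside by fewer bases.

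By annotation, 24 of the 37 genes were protein-coding (64.9%), 5 were lncRNAs (13.5%), 3 were pseudogenes (8.11%), 1 was an unclassified transcript and 4 (10.8%) had no entry in GENCODE 44, among them 3 assembled loci with no name. Other tested genes of the same mean level, 0.684 to 3.23 CPM, were 57.9% protein-coding and 25.8% lncRNAs, and of all genes tested 83.5% were protein-coding and 9.89% lncRNAs. Most of the 37 genes thus encode proteins, at a share between those of both backgrounds. This share depended on the limits. Applied to FPKM (counts scaled for length and depth), they chose 53 genes, of which 43.4% were protein-coding, below both backgrounds. With under 0.25 CPM in the control libraries, 6 genes were chosen and 100% were protein-coding. The other alternatives gave 58% to 72%. The exonic GC content of the 33 located genes had a median of 50.2% (quartiles 44.8% and 57.7%, range 33% to 64.5%). The median was 61.1% in the mirror set (quartiles 51.9% and 65.5%), 49.4% in tested genes of the same level and 48.7% in all genes tested. With these limits the GC content of the 37 genes was therefore close to the background, and the mirror genes were the GC-rich ones. The median moved with the alternatives described below. It ran from 48.4% (without control replicate 1) to 55.2% (under 0.25 CPM in the control libraries). With TMM-scaled CPM, which chose 35 genes, it was 54.9%. Exonic length had a median of 3844 bp, against 3544 bp in tested genes of the same level. The 17 promoters were poor in CpG: the observed over expected ratio had a median of 0.578, against 0.822 for 9 mirror genes, 0.735 for tested genes of the same level and 0.833 for all genes tested. A ratio under 0.6 was seen in 10 of the 17 (58.8%), against 35.7% at the same level and 18.9% of all genes tested. These 10 include the promoters of shorter transcripts of *GRM6* (0.436), *PRSS3* (0.0967) and *SYNPO2L* (0.303), whose starts lie inside the genes. The ratio was 0.0624 for *CPA4*, 0.0967 for the shorter transcript of *PRSS3*, 0.115 for *PSORS1C2* and 0.218 for *CASP14*, which are the genes of epidermis and secreted proteases described below.

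**Figure D1:**
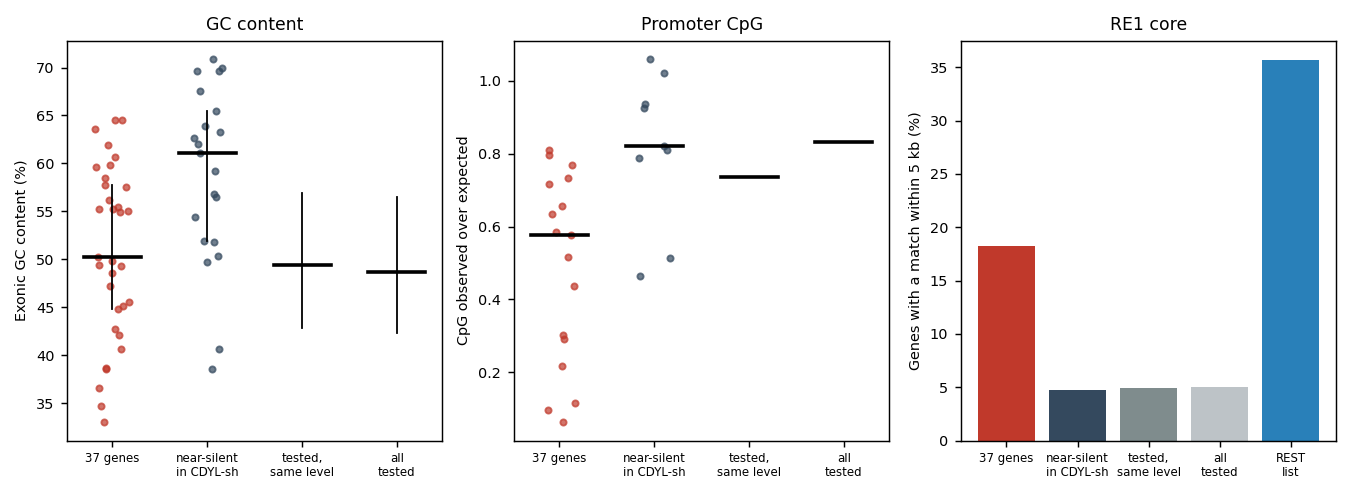
Sequence features of the 37 genes, the mirror set (near-silent in CDYL-sh, present in control), other tested genes of the same mean level and all genes tested. Promoters were found for 17 of the 37 genes and include those of shorter transcripts of GRM6, PRSS3 and SYNPO2L. Points are genes, thick bars medians and thin lines quartiles; the exonic GC content of the 37 genes (median 50.2%) is near that of all genes tested (48.7%), their promoter CpG ratio is lower (0.578 against 0.833), and a core RE1 match within 5 kb is found for 18.2% of them against 5.05% of genes tested and 35.7% of the REST list.

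The located genes were spread over 16 chromosomes, with 4 on chromosome 17 and 3 each on chromosomes 3, 9 and 19, and no 2 of them lay within 100 kb of each other. Their CPM summed to 61.3 and 63.4 in the *CDYL*-sh libraries and to 11.4 and 10.3 in the control libraries over all 37 genes. Single genes lay between 1 and 6.36 CPM in *CDYL*-sh cells, with medians of 1.31 and 1.48, and between 0 and 0.498 CPM in control cells, with medians of 0.361 and 0.297. Only 6 genes reached 2 CPM in both *CDYL*-sh libraries. No gene was at 0 in both control libraries, and *GRM6*, *CT47A12* and the lncRNA ENSG00000255498 were at 0 in 1 of them. The *CDYL*-sh libraries differed from each other by a median of 1.16-fold and at most 1.93-fold (*PTPRH*), with 16 genes higher in replicate 1 and 21 higher in replicate 2. All 37 genes passed the filter on low counts, as they had to through the *CDYL*-sh group. The fitted log2 fold change had a median of 2.07 (range 1.10 to 3.95), against 0.0113 over all 16158 genes tested. Of the 37, 36 passed edgeR's quasi-likelihood test as higher, where 13.6% of all genes tested did, and since the same contrast chose the genes nothing is read from this count, which was 22 without *CDYL*-sh replicate 2. The exception was *TAPT1-AS1*.

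**Figure D2:**
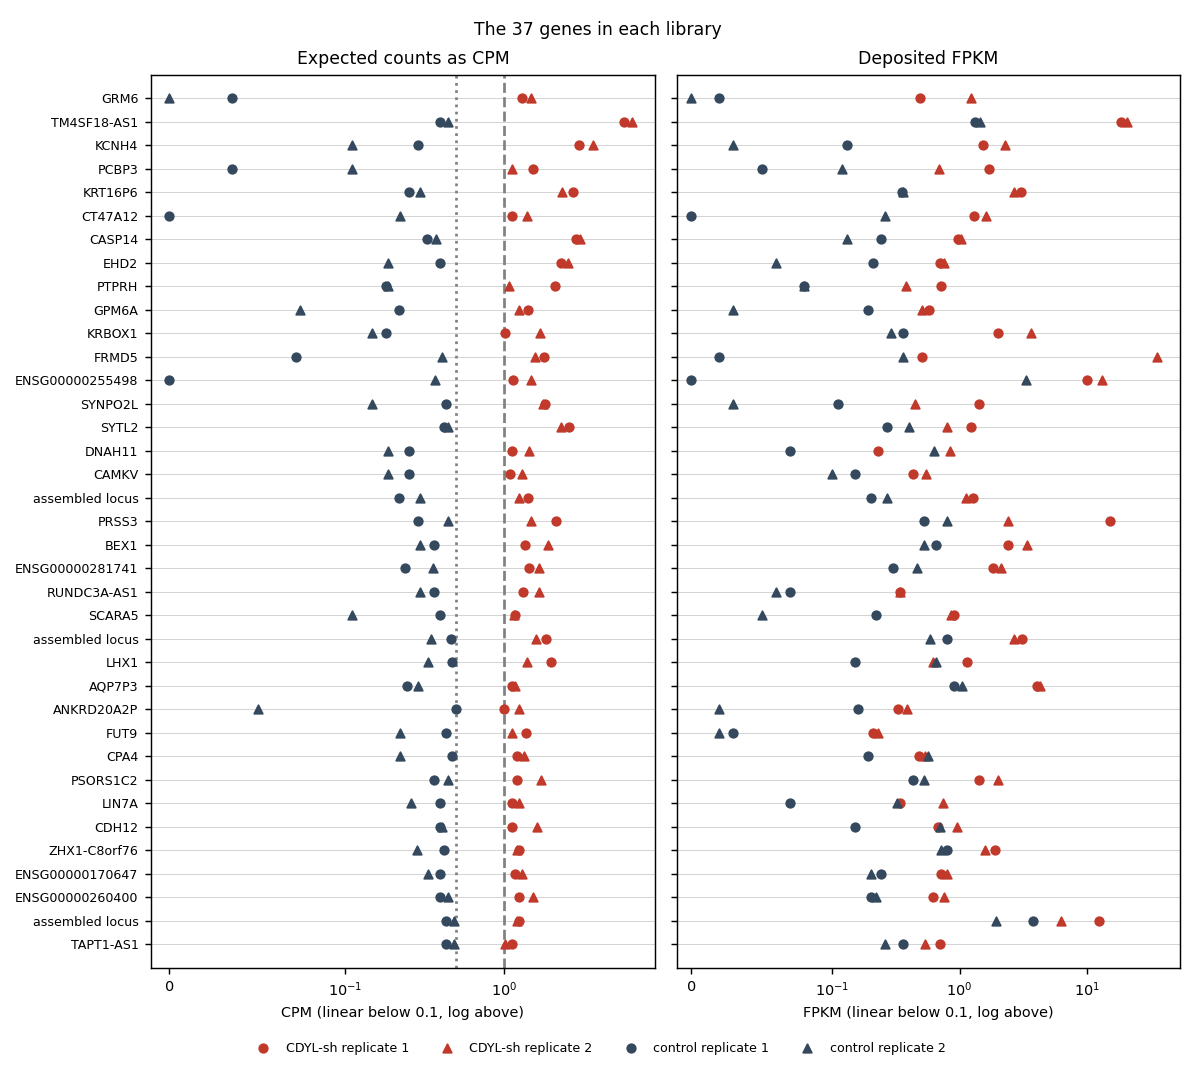
CPM (left) and deposited FPKM (right) of the 37 genes in each library, ordered by fitted log2 fold change, on axes that are linear below 0.1 and logarithmic above. Red marks CDYL-sh and dark blue control libraries, circles replicate 1 and triangles replicate 2; the dotted line at 0.5 and the dashed line at 1 CPM are the limits that chose the genes, and in FPKM the groups overlap for 4 genes.

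The largest group by known role comprised 7 genes of neuronal and sensory signalling, with log2 fold changes from 1.58 to 3.95 and a median of 2.09. *GRM6* (chromosome 5, 178977587 to 178996206, minus strand), the metabotropic glutamate receptor by which retinal ON bipolar cells read photoreceptor output, had counts of 35.71 and 33 in *CDYL*-sh cells and 1 and 0 in control cells. The ratio of the summed counts per total count was 75.4, with an exact 95% interval of 13.2 to 3035 that covers counting error only. Its control level was thus almost unmeasured, and its size of change is known only loosely. *KCNH4* (chromosome 17, 42156891 to 42181142, minus strand), a voltage-gated potassium channel subunit of the brain, was at 2.95 and 3.63 CPM in *CDYL*-sh cells and 0.289 and 0.111 CPM in control cells (log2 fold change 3.59, SE 0.46). In FPKM, which is per length, it was at 1.52 and 2.29 in *CDYL*-sh cells and 0.13 and 0.03 in control cells. FPKM comes from the same reads as the counts, so it is a second unit and no independent measurement. It also held an RE1 core with 0 mismatches, shown above, and an E-box in its promoter.

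The other 5 genes of this group had lower fold changes. *GPM6A*, a membrane glycoprotein of neurons, was at 1.42 and 1.25 CPM in *CDYL*-sh cells and 0.217 and 0.0741 CPM in control cells (log2 fold change 2.66, SE 0.60). *CAMKV*, a kinase-like protein of synaptic vesicles, was at 1.09 and 1.3 CPM in *CDYL*-sh cells and 0.253 and 0.185 CPM in control cells (2.09, SE 0.55). *BEX1*, a small X-linked protein of brain, was at 1.35 and 1.88 CPM in *CDYL*-sh cells and 0.361 and 0.297 CPM in control cells (2.04, SE 0.50). The *CDYL*-sh libraries of each gene lay close together, while the control libraries of *GPM6A* had 6 and 2 counts. *LIN7A*, a PDZ scaffold of synapses and cell junctions, was at 1.13 and 1.25 CPM in *CDYL*-sh cells and 0.397 and 0.259 CPM in control cells (1.63, SE 0.52). *CDH12*, a cadherin of brain, was at 1.13 and 1.61 CPM in *CDYL*-sh cells and 0.397 and 0.408 CPM in control cells (1.58, SE 0.49). Only 2 of 7 listed markers of neural cells could be tested. The 7 markers summed to 10.2 and 8.95 CPM in *CDYL*-sh cells and 3.07 and 3.89 CPM in control cells. Of these, *MAP2* (1.38, SE 0.21, adjusted p = 0.00015) and *SNAP25* (2.39, SE 0.68, adjusted p = 0.00312, both in edgeR's quasi-likelihood test) were higher in *CDYL*-sh cells, *OLIG2* was at 0 in every library, and *SYT1*, *STMN2* and *RBFOX3* were at 0.0741 CPM or less. Their part in the levels of the 7 genes was not tested.

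In all, 4 genes belonged to cornified epidermis or secreted proteases, with log2 fold changes from 1.66 to 2.81. *CASP14* (chromosome 19, 15049480 to 15058293, plus strand), the caspase of cornifying keratinocytes that takes part in filaggrin breakdown, was at 2.84 and 3 CPM in *CDYL*-sh cells and 0.325 and 0.371 CPM in control cells (2.81, SE 0.41). *PSORS1C2*, a gene of the psoriasis susceptibility region expressed in skin, was at 1.2 and 1.7 CPM in *CDYL*-sh cells and 0.361 and 0.445 CPM in control cells (1.66, SE 0.49). *CPA4*, a secreted carboxypeptidase, was at 1.2 and 1.34 CPM in *CDYL*-sh cells and 0.47 and 0.222 CPM in control cells (1.66, SE 0.52). The libraries of each group lay near each other for *CASP14*, while the control libraries of *CPA4* differed by more than the *CDYL*-sh ones. *PRSS3*, which encodes mesotrypsin, had counts of 58 and 33 in *CDYL*-sh cells and 8 and 12 in control cells (2.07, SE 0.47). It shares sequence with *PRSS1* and *PRSS2*, and the 3 genes together had 477 and 424 counts in *CDYL*-sh cells and 325 and 362 in control cells, a CPM ratio of 1.45. The counts of all 3 genes were whole in every library, and how reads were split between the copies was not tested.

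A further 5 genes act in membrane traffic or the cytoskeleton, with log2 fold changes from 2.18 to 2.74. *EHD2*, an ATPase that stabilizes caveolae, was at 2.29 and 2.51 CPM in *CDYL*-sh cells and 0.397 and 0.185 CPM in control cells (2.74, SE 0.46). *SYTL2*, a Rab27 effector of granule exocytosis, was at 2.56 and 2.29 CPM in *CDYL*-sh cells and 0.419 and 0.446 CPM in control cells (2.26, SE 0.41). *SYNPO2L*, an actin-associated protein of heart and skeletal muscle, was at 1.82 and 1.75 CPM in *CDYL*-sh cells and 0.433 and 0.148 CPM in control cells (2.33, SE 0.52). In CPM the *CDYL*-sh libraries of all 3 genes lay close together, but in FPKM those of *SYNPO2L* were at 1.42 and 0.45, against 0.11 and 0.03 FPKM in control cells, and those of *SYTL2* at 1.22 and 0.79, against 0.27 and 0.40 FPKM in control cells. *FRMD5*, a FERM domain protein of cell junctions, had counts of 49 and 35 in *CDYL*-sh cells and 2 and 11 in control cells (2.46, SE 0.58). *DNAH11*, an outer dynein arm heavy chain of motile cilia, was at 1.13 and 1.44 CPM in *CDYL*-sh cells and 0.253 and 0.186 CPM in control cells (2.18, SE 0.55). *CDCA7L*, which it overlaps on the opposite strand, was at 60.2 and 53.7 CPM in *CDYL*-sh cells and 48.1 and 36.6 CPM in control cells. The strand setting of the counting is not given, so reads of the pair may not have been told apart. Of 53 tested genes on an axoneme list, which holds *DNAH11*, 6 were higher and 7 lower in *CDYL*-sh cells, with a median log2 fold change of 0.07.

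Surface receptors and glycosylation were represented by 3 genes. *PTPRH*, a receptor-type tyrosine phosphatase, was at 2.08 and 1.07 CPM in *CDYL*-sh cells and 0.181 and 0.185 CPM in control cells (log2 fold change 2.67, SE 0.57), with the widest gap between *CDYL*-sh libraries among the 37 genes. *SCARA5*, a scavenger receptor that takes up ferritin, was at 1.17 and 1.16 CPM in *CDYL*-sh cells and 0.397 and 0.111 CPM in control cells (1.89, SE 0.58). *FUT9*, the fucosyltransferase that makes the Lewis x antigen in brain and other tissues, was at 1.38 and 1.12 CPM in *CDYL*-sh cells and 0.433 and 0.222 CPM in control cells (1.71, SE 0.52). Another 3 genes encode nuclear or RNA-binding proteins. *PCBP3* (chromosome 21, 45643694 to 45942454, plus strand), a poly(C)-binding protein, had counts of 42 and 25 in *CDYL*-sh cells and 1 and 3 in control cells (3.22, SE 0.69). *KRBOX1*, a protein with a KRAB box, was at 1.01 and 1.69 CPM in *CDYL*-sh cells and 0.181 and 0.148 CPM in control cells (2.56, SE 0.59). *LHX1*, a LIM homeodomain transcription factor of the kidney and the Müllerian duct in development, was at 1.97 and 1.39 CPM in *CDYL*-sh cells and 0.47 and 0.334 CPM in control cells (1.87, SE 0.47). *LHX1* was the one gene of the 37 on a list of developmental transcription factors, of which 4 of 90 tested were higher and 15 lower in *CDYL*-sh cells (median log2 fold change -0.17).

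Among the 5 lncRNAs, *TM4SF18-AS1* (chromosome 3, 149284782 to 149333653, plus strand) stood out. It had counts of 157 and 142 in *CDYL*-sh cells and 11 and 12 in control cells, and its FPKM were 18.59 and 20.73 in *CDYL*-sh cells and 1.33 and 1.44 in control cells (log2 fold change 3.61, SE 0.32). No other of the 37 genes reached 10 FPKM in both *CDYL*-sh libraries except the lncRNA ENSG00000255498, at 10.11 and 13.15 FPKM in *CDYL*-sh cells and 0 and 3.3 FPKM in control cells (2.39, SE 0.73). *RUNDC3A-AS1* was at 1.31 and 1.66 CPM in *CDYL*-sh cells and 0.361 and 0.297 CPM in control cells (1.93, SE 0.50). *TAPT1-AS1* was at 1.13 and 1.01 CPM in *CDYL*-sh cells and 0.433 and 0.482 CPM in control cells, and its log2 fold change of 1.10 (SE 0.49) was the lowest of all 37. ENSG00000260400 had 34 and 34 counts in *CDYL*-sh cells and 11 and 12 in control cells (1.53, SE 0.48). All but ENSG00000260400 overlap a tested gene on the opposite strand, and since the strand setting of the counting is not given, reads of a gene and its antisense partner may not have been told apart. The same holds for *LIN7A*, *PSORS1C2*, *DNAH11* and ENSG00000281741, which overlap *ACSS3*, *PSORS1C1*, *CDCA7L* and *LINC00623* on the opposite strand.

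Several genes have near-identical copies or share exons, and for them the family total matters more than the single gene. *KRT16P6*, a pseudogene of the keratin gene *KRT16*, had 74 and 52 counts in *CDYL*-sh cells and 7 and 8 in control cells (2.87, SE 0.44). *KRT16* and its pseudogenes together had 113 and 71 counts in *CDYL*-sh cells and 10 and 10 in control cells, a CPM ratio of 9.97, and *KRT16P6* itself gave most of these counts. *CT47A12*, a cancer-testis antigen gene of a tandem array on chromosome X, gave the opposite picture. It had 31 and 31 counts in *CDYL*-sh cells and 0 and 5.93 in control cells (2.82, SE 0.75), while the adjacent copy *CT47A11* had 0 and 0 counts in *CDYL*-sh cells and 25 and 30.07 in control cells. Their sums were 31 and 31 in *CDYL*-sh cells and 25 and 36 in control cells, a CPM ratio of 1.12, so the pair together was about as high in control cells. The pseudogene *ANKRD20A2P* had 27.5 and 27.68 counts in *CDYL*-sh cells and 13.78 and 1.37 in control cells (1.78, SE 0.66), and its family had a CPM ratio of 0.91. The pseudogene *AQP7P3* had 30.91 and 26.27 counts in *CDYL*-sh cells and 6.82 and 7.78 in control cells (1.79, SE 0.53), with a family ratio of 2.38. The read-through gene *ZHX1-C8orf76* had 33.93 and 27.06 counts in *CDYL*-sh cells and 11.62 and 7.69 in control cells (1.55, SE 0.50), among 1237 and 996 counts in *CDYL*-sh cells and 1099 and 948 in control cells for the 3 genes of the locus. Counts that were not whole in some library, as reads divided between features give, were found in 12 of the 37 genes (32.4%) and in 40% of all genes tested.

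The remaining 5 entries carry no symbol. The unclassified transcript ENSG00000281741 (chromosome 1, 120913151 to 120914238, minus strand) had 39.49 and 37.33 counts in *CDYL*-sh cells and 6.55 and 9.69 in control cells (log2 fold change 2.04, SE 0.50). ENSG00000170647 had 32 and 29 counts in *CDYL*-sh cells and 11 and 9 in control cells (1.55, SE 0.50). The 3 assembled loci had log2 fold changes of 1.27, 1.89 and 2.08.

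Counts and FPKM did not always agree. FPKM, a count scaled for transcript length and library depth, should follow the count of a gene across libraries unless the transcript length used for it changes. Both *CDYL*-sh libraries lay above both control libraries in FPKM for 33 of the 37 genes, where 30.3% of all genes tested did. The same reads chose the 37 genes by this order in CPM, so nothing is read from this count. The groups overlapped in FPKM for *CDH12*, *CPA4*, *DNAH11* and *LHX1*. For these 4 genes control replicate 2 carried the overlap: *LHX1* was at 1.14 and 0.62 FPKM in *CDYL*-sh cells and 0.15 and 0.65 FPKM in control cells. *DNAH11* was at 0.23 and 0.84 FPKM in *CDYL*-sh cells and 0.07 and 0.63 FPKM in control cells, and *CPA4* at 0.48 and 0.54 FPKM in *CDYL*-sh cells and 0.19 and 0.57 FPKM in control cells. The counts per FPKM, divided by their median in each library and taken over libraries with at least 0.1 FPKM, varied by over 2-fold between libraries in 13 of the 37 genes (35.1%), against 5.39% of 16081 genes tested. The 37 genes had mean levels of 0.684 to 3.23 CPM and all genes tested 0.211 to 8913 CPM. No share was taken at the level of the 37 genes, so the difference is not read as a trait of them. The widest variation, 79.3-fold, was in *FRMD5*. Its counts of 49 and 35 in the *CDYL*-sh libraries stood beside 0.51 and 35.65 FPKM, with 0.02 and 0.36 FPKM in control cells. *PRSS3* was at 15.23 and 2.39 FPKM in *CDYL*-sh cells for 58 and 33 counts, and at 0.53 and 0.79 FPKM in control cells. Over all 4 libraries the measures moved together for *TM4SF18-AS1* (1.05-fold), *BEX1* (1.02-fold) and *KRT16P6* (1.22-fold). With the limits of 0.5 and 1 applied to FPKM in place of CPM, 53 genes were chosen, of which 6 were among the 37 (16.2% of the 37 genes and 11.3% of the 53). These were *KCNH4*, *KRBOX1*, *KRT16P6*, *CT47A12*, ENSG00000281741 and 1 assembled locus.

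**Figure D3:**
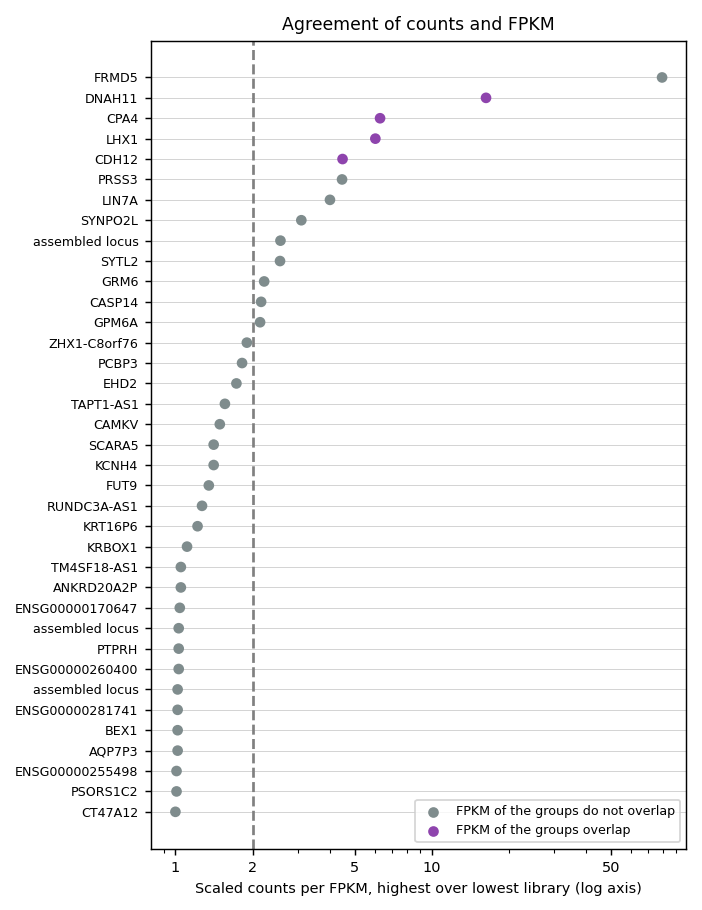
Counts per FPKM, divided by the library's median, for each of the 37 genes, as the highest library over the lowest (log axis), over libraries with at least 0.1 FPKM. A value of 1 means that counts and FPKM moved together over those libraries; 13 genes lie right of the dashed line at 2, led by FRMD5 at 79.3, and purple marks the 4 genes whose FPKM overlap between groups.

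The limits that chose the genes cut through a continuous range. The members nearest the control limit were *ANKRD20A2P* at 0.498 CPM and *TAPT1-AS1* at 0.482 CPM, and the nearest gene left out was *CA9*, a carbonic anhydrase of hypoxic cells, at 4.56 and 4.7 CPM in *CDYL*-sh cells and 0.165 and 0.502 CPM in control cells. At the other limit, *ANKRD20A2P* at 1 CPM and *KRBOX1* at 1.01 CPM were inside. *TGFB2-OT1*, at 0.999 and 1.61 CPM in *CDYL*-sh cells and 0 and 0 CPM in control cells, was left out, as was *LY6D* at 1.2 and 0.985 CPM in *CDYL*-sh cells and 0.217 and 0.185 CPM in control cells. A few counts in 1 library thus decided which of these genes belong.

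Genes beside the 37 were not named by the rule and were tested. Those that overlap a chosen gene, such as *ZHX1* and *RUNDC3A*, or are copies of it, such as *KRT16P2* and *CT47A11*, may share reads with it. Their results are therefore not independent of how the 37 genes were chosen. Within 50 kb of the 33 located genes lay 70 tested genes, of which 13 (18.6%) were higher and 7 (10%) lower in *CDYL*-sh cells, with a median log2 fold change of 0.085, where 13.6% of all genes tested were higher and 12.1% lower. Those that overlap 1 of the 37 genes were 5 of 11 higher (45.5%) and 0 lower (median 0.41). Those that do not overlap were 8 of 59 higher (13.6%) and 7 of 59 lower (11.9%), with a median of 0.03. The neighbours that do not overlap were thus near the background. Of the 33 located genes, 27 had a tested neighbour and 6 had none, 11 had a neighbour that was higher and 6 one that was lower, with *KCNH4* in both counts. *RUNDC3A*, a neuronal RUN domain protein and the antisense partner of *RUNDC3A-AS1*, had 140 and 138 counts in *CDYL*-sh cells and 29 and 15 in control cells (log2 fold change 2.69, SE 0.32, adjusted p = 9.89e-06 in edgeR's quasi-likelihood test). It is on the list of REST targets and has 1 RE1 core match within 5 kb. *TM4SF1*, a tetraspanin-like membrane protein 35.4 kb from *TM4SF18-AS1*, had 75 and 55 counts in *CDYL*-sh cells and 7 and 25 in control cells (1.99, SE 0.46, adjusted p = 0.00229). *TM4SF18*, which *TM4SF18-AS1* overlaps, had 23 and 16 counts in *CDYL*-sh cells and 11 and 3 in control cells and did not pass the test (1.36, SE 0.63, adjusted p = 0.0691). *LHX1-DT*, the divergent lncRNA 0.115 kb from *LHX1*, had 15 and 23 counts in *CDYL*-sh cells and 4 and 2 in control cells (2.19, SE 0.72, adjusted p = 0.00806). *KRT16P2*, 7.51 kb from *KRT16P6*, had 28 and 10 counts in *CDYL*-sh cells and 2 and 2 in control cells (2.44, SE 0.79, adjusted p = 0.00463). In the opposite direction, *CT47A11* (adjusted p = 0.000174) and *BMS1P4-AGAP5*, 10.5 kb from *SYNPO2L* with 0 and 0 counts in *CDYL*-sh cells and 49.24 and 10.6 in control cells (adjusted p = 0.000656), were at 0 in both *CDYL*-sh libraries.

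**Figure D4:**
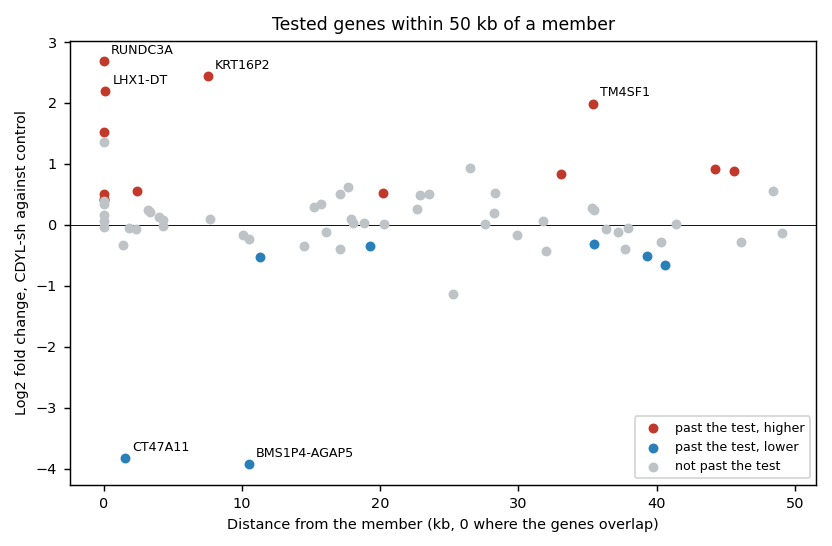
Fitted log2 fold change, CDYL-sh against control, of the 70 tested genes within 50 kb of 1 of the 33 located genes, by their distance in kb (0 where the genes overlap). Red points passed edgeR's quasi-likelihood test as higher in CDYL-sh (13 genes), blue as lower (7 genes), and grey did not pass; the higher ones include RUNDC3A at 2.69 and LHX1-DT at 2.19.

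The 37 genes were also set against 10 lists of genes of particular tissues, states or functions. Not all listed genes are silent in control cells. The hypoxia target *ENO1* was at 3487 and 3804 CPM there, and the secretion gene *CPE* at 71.7 and 73.3 CPM. *LHX1* and *DNAH11* were each on 1 list, and the others were on none of the 10. On the list of REST target genes, which holds none of the 37, 14 of 42 tested genes were higher and 3 lower in *CDYL*-sh cells (median log2 fold change 0.475, against 0.0113 over all genes tested). These counts stand beside 13.6% higher and 12.1% lower among all genes tested. Of 34 tested genes of regulated secretion 11 were higher and 4 lower (median 0.217), and of 49 tested hypoxia targets 22 were higher and 3 lower (median 0.293). Of 27 tested cancer-testis antigen genes 1 was higher and 2 lower, of 19 tested genes of meiosis and germline 2 were higher and 1 lower, and of 38 tested imprinted genes 2 were higher and 6 lower. Of 36 tested interferon-stimulated genes 3 were higher and 3 lower, and of 21 tested genes of gut and other epithelial lineages 5 were higher and 3 lower. Markers of other cells were measured in the same libraries. The 8 stromal markers summed to 18.3 and 15.8 CPM in *CDYL*-sh cells and 24 and 25.7 CPM in control cells. *COL1A1*, at 9 and 7.65 CPM in *CDYL*-sh cells and 13.1 and 16.2 CPM in control cells, and *COL1A2*, at 7.94 and 6.85 CPM in *CDYL*-sh cells and 9.1 and 8.12 CPM in control cells, carried most of this sum, while *DCN* and *COL3A1* were at 0 in every library. The 6 blood markers summed to 1.13 and 0.538 CPM in *CDYL*-sh cells and 1.08 and 1.25 CPM in control cells, with *CD3E* and *HBB* at 0. The 5 endothelial markers summed to 8.12 and 8.73 CPM in *CDYL*-sh cells and 3.83 and 4.19 CPM in control cells, where *PECAM1* was higher in *CDYL*-sh cells (1.65, SE 0.26, adjusted p = 0.000138, edgeR's quasi-likelihood test) and *KDR* and *TEK* were at 0.134 CPM or less. The part of these cells in the levels of the 37 genes was not tested.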

How the data were processed

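RNA was sequenced as paired-end reads from Ishikawa cells with a *CDYL* shRNA or a negative control shRNA (2 libraries each, 4 in all), grouped by their titles. Reads were aligned to GRCh38.p10 with TopHat. RSEM and edgeR are further tools named in the notes of the submitters. The annotation release and strand setting of the counting are not given in the sources used here. The deposited table holds, per gene and library, an expected count, which the authors estimated and did not normalize, and an FPKM, which the authors normalized for length and depth.

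CPM were taken over the raw column sums. Expected counts were rounded, filtered with filterByExpr, TMM-normalized and tested with edgeR 4.0.16 (R 4.3.3; glmQLFit and glmQLFTest, prior count 2, Benjamini-Hochberg, threshold 0.05) on all genes, after the test was checked on simulated data. A count within 0.01 of a whole number was called whole. Positions, GC content and length came from GENCODE 44, promoters from RefSeq. Replicate numbers are those that end the titles, which do not call the libraries replicates. In the *CDYL*-sh titles these endings match names that the study gives to hairpins. The *CDYL*-sh libraries called replicates here may therefore carry different hairpins. Mean levels for the comparison at the same level are over all 4 libraries. Alternatives were other scalings (RLE, library size only), no filter, DESeq2 1.42.0, limma 3.58.1 on log2 FPKM (pseudocount 1 or 0.1, mean FPKM of at least 0.5), a replicate block, each library left out and other limits. Restriction to whole counts and offsets for GC content and length were chosen after seeing the data. The members, the 10 gene lists, the 6 marker lists and the role groups were chosen with earlier results of these data known. The rule for naming genes gave 25 of the 37 and the others were named after their values were seen. Intervals cover counting error only.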

Additional observations from a re-analysis of the deposited data

How the results depend on the processing

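The number of genes chosen depended on the limits and on each library. It was 37 as reported, 35 with TMM-scaled CPM, 36 with rounded counts, 25 with whole counts only and 53 with FPKM, but 6 with under 0.25 CPM in the control libraries and 6 with at least 2 CPM in the *CDYL*-sh libraries. Leaving out 1 library gave 69 to 77 genes by construction, since fewer libraries had to meet the limits: the count was 69 when control replicate 1 was left out, 77 for control replicate 2, and 72 for either *CDYL*-sh library. The number of genes past the test, 4157, was 507 and 461 with limma on log2 FPKM (pseudocount 0.1 and 1), and 2082 to 4006 with 1 library left out, the lowest without *CDYL*-sh replicate 2. Such fits assume that the single library left in a group varies as the other group does. Of the 37 genes, 36 passed the test, 23 with DESeq2, 7 and 6 of 23 tested with limma (pseudocount 0.1 and 1), and 22 to 29 with 1 library left out, 22 without *CDYL*-sh replicate 2. The median log2 fold change of 2.07 was 2.28 with DESeq2, 1.13 with limma at a pseudocount of 1 and 1.95 to 2.14 with 1 library left out, 1.95 without control replicate 2. With offsets for GC content and length, 33 of 33 located genes passed (median 2.11). The causes were not tested. With a replicate block, 5393 genes passed, 36 of the 37 among them (median 2.06). Same-numbered libraries did not deviate together (r = 0.0305 over 16158 genes), but this cannot show whether they were prepared in pairs. At 13.8 and 13.5 counts for 0.5 CPM in the control libraries, depth limits the control level of each of the 37 genes.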
